A study of Mus musculus with 6 samples.

Results

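The transcripts of 10 growth factors that myeloid cells secrete were examined in RNA-seq of cultured mouse dendritic cells, with and without DB2313. The 10 genes were taken by symbol from the table of 54532 genes, and all were found, once each. They were Vegfa, Vegfb, Pgf, Hbegf, Areg, Igf1, Pdgfb, Fgf1, Hgf and Osm. DB2313 is a small molecule that the study used as an inhibitor of Spi1, also called PU.1, the transcription factor that drives macrophage and dendritic cell genes. Both groups were labelled as dendritic cells kept in serum-containing medium, 3 control libraries without the compound and 3 treated with DB2313. The labels gave no dose, time, strain, age or genotype, and did not say whether libraries came from separate cultures, so p-values measure the spread between these libraries, which may be technical. The labels called the cells dendritic cells, while the study's methods for RNA-seq named macrophages. In the count table the control columns were headed BMDC, a common abbreviation of dendritic cells grown from bone marrow, and the others SPI1, and every direction below rests on reading the SPI1 columns as DB2313.

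Total counts ranged from 16146743 to 19764677 per library, and the filter on low counts kept 14174 genes. Libraries of the same group differed by more than sampling noise, with a chi-square per degree of freedom of 5.02 to 5.55 between controls and 7.99 to 19.4 between DB2313 libraries, highest for replicates 1 and 3. Dendritic cell markers were present, 17 of 20 above 10 CPM (counts scaled to each library's size). But so were 17 of 20 macrophage, 15 of 15 neutrophil, 9 of 14 T and NK cell and 8 of 15 mast cell and basophil markers. The summed level of the dendritic cell list was 15418 to 15781 CPM in control and 13313 to 15406 CPM with DB2313, lower in every DB2313 library, with 3 genes higher and 3 lower of 19 tested. That of the macrophage list was 10890 to 12304 CPM in control and 9745 to 10644 CPM with DB2313, with 3 genes higher and 11 lower of 18 tested, again without overlap. That of the neutrophil list was 5081 to 5586 and 5510.5 to 6857 CPM, with 6 genes higher and 1 lower of 15 tested. That of the mast cell and basophil list was 2523 to 2722 and 2572 to 3082 CPM, with 2 genes higher and none lower of 10 tested by edgeR at an adjusted p under 0.05. The low sum of the B cell list was also lower in every DB2313 library (32.3 to 35.8 and 24.9 to 30.9 CPM, 1 gene lower of 3 tested). Spi1 itself had a mean of 366 ± 18.4 CPM in the control group, against 329 ± 20.1 CPM in the DB2313 group (SD, n = 3 per group, edgeR adjusted p 0.206).

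Growth factors act by binding receptor kinases or cytokine receptors on the same or on neighbouring cells, and macrophages and dendritic cells use them to direct vessel growth, tissue repair and matrix formation. The VEGF family (Vegfa, Vegfb and Pgf) acts on blood vessels through Flt1 and Kdr. Hbegf and Areg encode membrane-bound ligands of the EGF receptor that proteases such as Adam17 release. Igf1 signals through Igf1r, PDGF-B through Pdgfrb and Pdgfra, and HGF through Met. FGF1 is released without a classical signal peptide and binds FGF receptors together with heparan sulfate. Oncostatin M, made by Osm, is a cytokine of the IL-6 family and needs the shared subunit Il6st.

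The 10 genes together took 5290 to 6333 reads per library. Levels between genes were compared as CPM per kilobase of the deposited gene length. In control cells the order was Vegfa (28.7 ± 3.35), Osm (17.2 ± 1.07), Vegfb (13.2 ± 0.600), Igf1 (8.31 ± 0.722), Pdgfb (6.63 ± 0.701), Hgf (6.39 ± 0.848), Fgf1 (2.26 ± 0.186), Hbegf (0.918 ± 0.207), Pgf (0.0860 ± 0.0781) and Areg (0.0172 ± 0.0298, SD, n = 3 each). Neighbours in this order did not overlap over the control libraries, except Pdgfb with Hgf and Pgf with Areg. With DB2313 the order of the first 6 was the same, but Hbegf (1.40 ± 0.0583 CPM per kilobase) and Fgf1 (1.37 ± 0.151) overlapped, whereas in control every library had more Fgf1 than Hbegf per kilobase. Osm and Vegfb, which were apart in control, overlapped with DB2313. Igf1 was second only to Vegfa in CPM, but its deposited length of 9904 bp was the greatest of the 10, and it was 4th per kilobase.

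**Figure D1:**
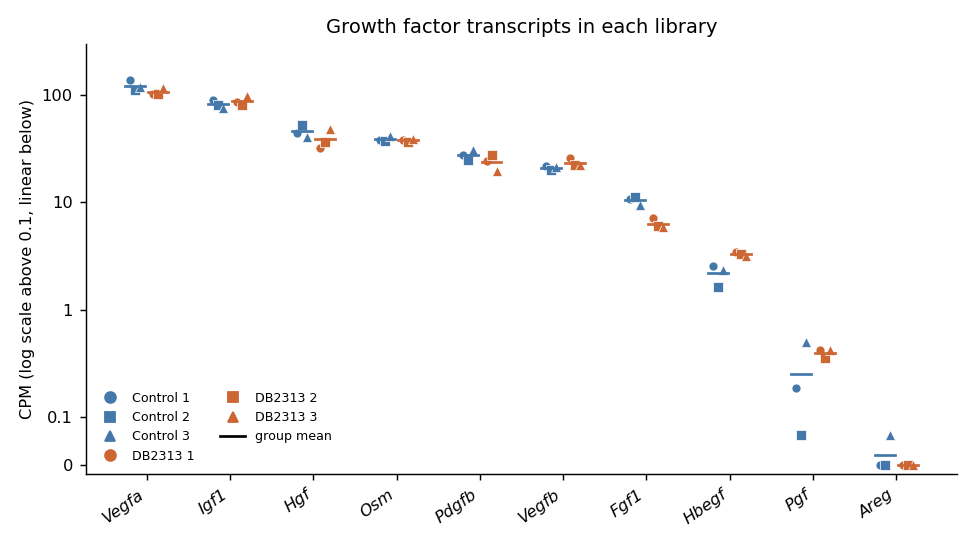
CPM (vertical axis, log scale above 0.1 and linear below) of the 10 growth factor genes in the 3 control (blue) and 3 DB2313 (orange) libraries, with a symbol for each replicate and a line at the group mean. Fgf1 is lower in all DB2313 libraries (5.89 to 7.16 CPM) than in all control libraries (9.53 to 11.2 CPM), while Areg is at 0 in 5 of 6 libraries.

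Whether DB2313 changed these transcripts was tested in edgeR, with its quasi-likelihood test run on all 14174 genes. Of the 10 genes, 8 had enough reads to be tested, and 1 of them, Fgf1, was called at an adjusted p under 0.05. None was called higher by edgeR, DESeq2 or limma-voom, and Hbegf alone was higher at an unadjusted edgeR p under 0.05. Over all genes tested, 10.6% were called, 4.66% higher and 5.94% lower, so 1 of 8 (12.5%) was close to the background. The unadjusted p was under 0.05 for 3 of the 8 (Vegfa, Hbegf and Fgf1), against 23.3% of all genes. The median log2 fold change of the 8 genes was -0.12, beside 0.000822 for all genes, and the median absolute log2 fold change was 0.20 beside 0.16. For 6 of the 8 genes the 95% interval of the difference lay within a 1.5-fold change in either direction. The other 2 were Hbegf and Fgf1.

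**Figure D2:**
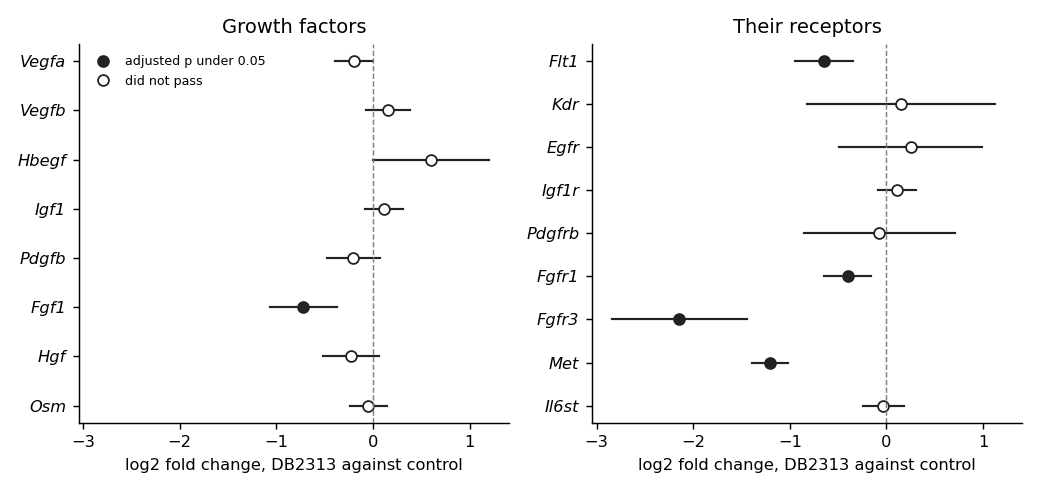
Log2 fold changes (DB2313 against control, horizontal axis) with 95% intervals from edgeR for the 8 growth factor genes tested (left) and 9 receptor genes (right); filled points passed an adjusted p of 0.05. Among the growth factors only Fgf1 (-0.72) is filled, and among the receptors Fgfr3 (-2.14), Met (-1.20), Flt1 (-0.65) and Fgfr1 (-0.40) are.

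Fgf1 (ENSMUSG00000036585) lies on the minus strand of chromosome 18, at 38838673 to 38929404 as deposited. It encodes acidic fibroblast growth factor, a mitogen for many cell types. The control libraries held 174, 179 and 152 reads, or 10.7, 11.2 and 9.53 CPM. The DB2313 libraries held 118, 120 and 98 reads, or 7.16, 6.02 and 5.89 CPM. All DB2313 libraries were below all control libraries, as was the case for 14.5% of all genes tested. Fgf1 fell from 10.5 ± 0.867 to 6.36 ± 0.702 CPM (SD, n = 3 each), a log2 fold change of -0.72 ± 0.16 (SE; 95% interval -1.07 to -0.38) with an edgeR adjusted p of 0.0095. Without control replicate 2 the edgeR adjusted p was 0.0606 (log2 fold change -0.67), and without DB2313 replicate 2 it was 0.0534 (-0.68). Fewer cells that express a gene and less RNA per cell cannot be told apart in bulk samples. The fall of Fgf1 went with lower sums of the macrophage, dendritic cell and B cell markers given above, whose part in it was not tested.

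The strand of the libraries was not stated, and Fgf1 overlaps Arhgap26, a gene on the other strand. In the GENCODE M21 annotation the exons of both genes share 0 bases. Arhgap26 moved the other way, with 33.2, 39.3 and 37.4 CPM in control and 43.0, 43.9 and 56.8 CPM with DB2313. Its log2 fold change was 0.39 ± 0.11 (SE, edgeR adjusted p 0.0400). The ratio of Fgf1 to Pdgfb reads, which needs no scaling between libraries, was 0.389, 0.454 and 0.312 in control and 0.294, 0.217 and 0.2997 with DB2313. These ranges lay apart. The exact permutation p (two-sided) was 0.1, the smallest that 3 libraries per group can give.

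Vegfa (ENSMUSG00000023951, GRCm38 chromosome 17, 46016993 to 46032369, minus strand) is the main vascular growth factor and was the most abundant of the 10 genes, with 31.8% to 37.1% of their reads. It was at 139, 112 and 118 CPM in control and at 102, 103 and 116 CPM with DB2313. The highest value was that of control replicate 1, and the highest DB2313 library lay among the controls. The log2 fold change was -0.20 ± 0.09 (SE; 95% interval -0.39 to -0.0075), and its edgeR adjusted p was 0.194 (0.0426 before adjustment). Without DB2313 replicate 3 it was -0.26 and passed (edgeR adjusted p 0.0370), and without control replicate 1 it was -0.0997.

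Vegfb (ENSMUSG00000024962, GRCm38 chromosome 19, 6982473 to 6987651, minus strand) encodes a ligand of Flt1 tied to fatty acid uptake and vessel survival. Its levels were 21.8, 20.01 and 21.6 CPM in control and 25.8, 22.3 and 22.4 CPM with DB2313. The groups did not overlap, as for 27.4% of all genes tested, but the gap between them was small beside the spread within the DB2313 group. Its log2 fold change was 0.15 ± 0.11 (SE; 95% interval -0.076 to 0.38), with an edgeR adjusted p of 0.438. Without DB2313 replicate 1 it was 0.082. The reads of Vegfb per read of Vegfa were 0.156, 0.179 and 0.183 in control and 0.253, 0.215 and 0.193 with DB2313, again without overlap (exact two-sided permutation p 0.1, the smallest possible). Vegfb leaned up and Vegfa down in these same libraries, so this ratio is not separate evidence for a change of either.

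Pgf (ENSMUSG00000004791, GRCm38 chromosome 12, 85166635 to 85177790, minus strand) encodes placental growth factor, a ligand of Flt1. It had 3, 1 and 8 reads in control and 7 in each DB2313 library, too few to pass the filter. No difference was detectable at this depth. With no filter its edgeR adjusted p was 0.736.

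Hbegf (ENSMUSG00000024486, chromosome 18, 36504929 to 36515805 as deposited, minus strand) encodes heparin-binding EGF-like growth factor. It had 42, 26 and 37 reads in control, or 2.58, 1.63 and 2.32 CPM. With DB2313 it had 57, 66 and 53 reads, or 3.46, 3.31 and 3.18 CPM. All DB2313 libraries were above all controls, as for 12.9% of all genes tested. The log2 fold change was 0.61 ± 0.28 (SE; 95% interval 0.0042 to 1.21), and its edgeR adjusted p was 0.210 (0.0486 before adjustment), so the gene was not called. It was lowest when control replicate 2 was left out (0.44) and highest when control replicate 1 was (0.75).

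Areg (ENSMUSG00000029378, GRCm38 chromosome 5, 91139599 to 91148432, plus strand) encodes amphiregulin, another EGF receptor ligand, which mast cells and innate lymphoid cells can make. It had 1 read in control replicate 3 and 0 in the other 5 libraries. A count of 0 allows up to 3 reads, which is 0.150 to 0.188 CPM in these libraries, and this limit covers counting error only. No fold change is given. The absence of reads stood beside mast cell and basophil markers that summed to 2523 CPM or more in every library, among them Cpa3, the mast cell carboxypeptidase (324 CPM on average in control, 347 CPM with DB2313). The largest members of that sum were Prss34 (1213 CPM on average in control, 1349 CPM with DB2313) and Mcpt8 (618 and 657 CPM). Mcpt4, Tpsab1 and Tpsb2 of that list had 3 reads or fewer in each library, Mcpt1 had 0 to 5 and Mcpt2 0 to 9. Whether mast cells or basophils gave the reads of this list was not tested.

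The 250 bases before the start of transcription were searched for fixed letter patterns in the RefSeq promoters of GRCm38.p6, which held 9 promoters of 6 of the 10 genes (Vegfa, Vegfb, Pgf, Areg, Igf1 and Hgf). Both strands were read. A gene was counted if any of its promoters held the pattern (Vegfa, Pgf and Hgf had 2 each). The shares of all promoters count each promoter once, so the 2 measures are unlike. Areg was the only one of the 6 with the PU.1 pattern GAGGAAGT, which 2.44% of all 32851 promoters held, and the only one with the cyclic AMP response pattern TGACGTCA, which 1.55% held. The ETS core GGAA, which is part of the PU.1 pattern, was in 5 of the 6 genes and in 93.4% of all promoters. The hypoxia pattern GCGTG was in 5 genes (28.2% of all promoters) and ACGTG in 1 gene, Vegfa (16.6%). The AP-1 pattern TGANTCA was in 1 gene, Igf1 (6.75%), and the STAT pattern TTCNNNGAA in none (7.02%). A stretch of the Areg promoter is shown because it holds both of the rarer patterns in a gene that gave almost no reads, beside a stretch of the promoter of Flt1, a VEGF receptor gene that fell and also holds TGACGTCA. The Areg stretch is chr5:91139449-91139558 (plus strand, 150 to 41 bases before the start) and the Flt1 stretch is chr5:147726062-147726121 (minus strand, 110 to 51 bases before the start), neither of them in an annotated exon of GENCODE M21. Capitals mark the PU.1 pattern, which reads in reverse complement in Areg, and the cyclic AMP response pattern. A match of letters is not evidence of binding.
Areg: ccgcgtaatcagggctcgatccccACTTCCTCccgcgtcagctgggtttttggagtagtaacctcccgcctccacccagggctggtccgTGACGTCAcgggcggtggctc
Flt1: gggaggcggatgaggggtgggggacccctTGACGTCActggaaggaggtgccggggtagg

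Igf1 (ENSMUSG00000020053, GRCm38 chromosome 10, 87858265 to 87937042, plus strand) encodes insulin-like growth factor 1, a survival and repair factor that macrophages make. Its levels were 89.8, 81.5 and 75.5 CPM in control and 87.2, 81.4 and 98.9 CPM with DB2313. The groups overlapped. The log2 fold change was 0.12 ± 0.09 (SE; 95% interval -0.079 to 0.31), with an edgeR adjusted p of 0.499. It was 0.18 without control replicate 1 or DB2313 replicate 2, 0.059 without control replicate 3 and 0.035 without DB2313 replicate 3, and it was not called in any of these. Its antisense gene Igf1os had 8 to 46 reads per library, against 1204 to 1646 for Igf1.

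Pdgfb (ENSMUSG00000000489, GRCm38 chromosome 15, 79995874 to 80014977, minus strand) encodes the B chain of platelet-derived growth factor, a mitogen for smooth muscle cells and fibroblasts. It was at 27.5, 24.7 and 30.5 CPM in control and at 24.4, 27.7 and 19.6 CPM with DB2313. The groups overlapped, and DB2313 replicate 3 was the lowest library. The log2 fold change was -0.20 ± 0.13 (SE; 95% interval -0.47 to 0.071), with an edgeR adjusted p of 0.382. It was -0.32 without DB2313 replicate 2, -0.12 without control replicate 3 and -0.078 without DB2313 replicate 3, and it was not called in any of these. Platelet and megakaryocyte markers summed to 237 to 273 CPM in control and 255 to 292 CPM with DB2313, and none of the 8 was called.

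Hgf (ENSMUSG00000028864, GRCm38 chromosome 5, 16553495 to 16620152, plus strand) encodes hepatocyte growth factor, which acts on epithelial and endothelial cells through Met. It was at 44.8, 52.4 and 40.4 CPM in control. With DB2313 it was at 32.0, 36.9 and 48.8 CPM, the widest spread in that group among the 8 tested genes, with a coefficient of variation of 22.03%. DB2313 replicates 1 and 2 lay below all controls and replicate 3 lay among them. The log2 fold change was -0.23 ± 0.14 (SE; 95% interval -0.52 to 0.062), with an edgeR adjusted p of 0.347. Without DB2313 replicate 3 it was -0.41, with an edgeR adjusted p of 0.0116, and without DB2313 replicate 1 it was -0.10, with an adjusted p of 0.681. Among the DB2313 libraries several marker sums ran in the reverse of the order of Hgf, highest in replicate 1 and lowest in replicate 3: those of the neutrophil (6857, 5910 and 5510.5 CPM), dendritic cell (15406, 14457 and 13313 CPM), mast cell and basophil (3082, 2946 and 2572 CPM) and T and NK cell lists (486, 420 and 376 CPM). The fibroblast (224, 258 and 289 CPM) and endothelial sums (94.965, 101.454 and 107.978 CPM) ran in the same order as Hgf. However, 5 of 10 fibroblast and 2 of 8 endothelial markers had 3 reads or fewer in every library. Fn1 of the fibroblast list (120, 165 and 209 CPM) and Vwf of the endothelial list (40.4, 48.2 and 55.8 CPM) followed the order of Hgf. Thy1 of the fibroblast list ran in reverse (97.3, 85.6 and 73.4 CPM), and Pecam1 of the endothelial list (52.3, 48.7 and 48.9 CPM) did not follow it. The remaining lists followed neither order. In control none of the lists ran in the order of Hgf or in its reverse. Whether cells of any of these types had a part in the spread of Hgf was not tested. The reads of Hgf per read of Igf1 were 0.4993, 0.644 and 0.535 in control and 0.367, 0.453 and 0.493 with DB2313, without overlap (exact two-sided permutation p 0.1, the smallest possible). Hgf leaned down and Igf1 up in these same libraries, so this ratio is not separate evidence for a change of either. The reads of Osm per read of Hgf were 0.855967, 0.706938 and 1.03416 in control and 1.20493, 0.983673 and 0.791872 with DB2313. These overlapped (exact two-sided permutation p 0.5), unlike the other ratios computed. Hgf shares 484 bp at 95% identity or more with Gm43489, a predicted gene within it.

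Osm (ENSMUSG00000058755, GRCm38 chromosome 11, 4236420 to 4241026, plus strand) was the steadiest of the tested genes in this comparison. It was at 38.4, 37.1 and 41.8 CPM in control and at 38.6, 36.3 and 38.6 CPM with DB2313. The log2 fold change was -0.048 ± 0.09 (SE; 95% interval -0.24 to 0.14), with an edgeR adjusted p of 0.806.

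**Figure D3:**
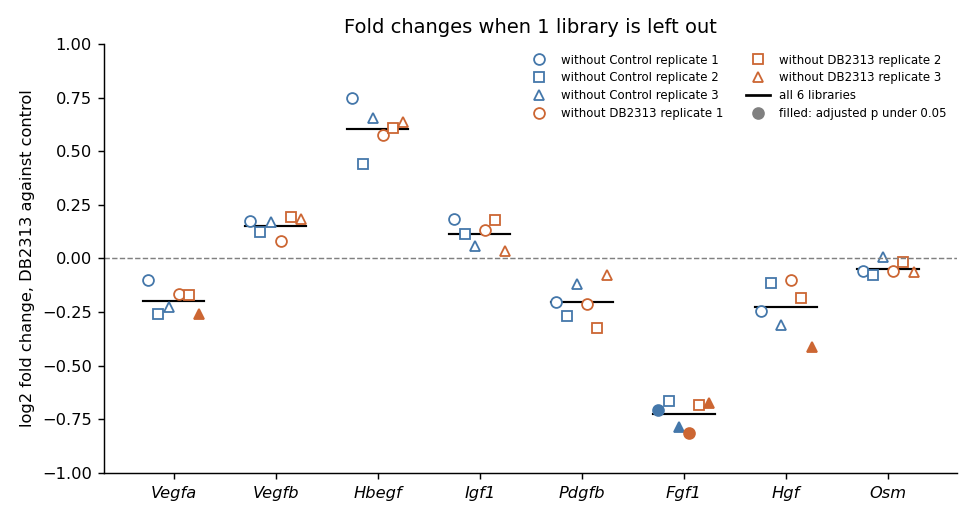
Log2 fold changes (vertical axis, DB2313 against control) of the 8 growth factor genes in 6 fits that each left out 1 library (symbols; filled where the edgeR adjusted p was under 0.05) and with all 6 libraries (line). Fgf1 stays between -0.81 and -0.67 but is open without control replicate 2 or DB2313 replicate 2, whereas Vegfa and Hgf are filled only without DB2313 replicate 3.

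Without DB2313 replicate 3, 3 growth factor genes were called lower (Vegfa, Fgf1 and Hgf), and without control replicate 2 or DB2313 replicate 2 none was called by edgeR, although Fgf1 then had adjusted p-values of 0.0606 and 0.0534. The number of all genes called was 1503 with every library, 2408 without DB2313 replicate 3, 796 without control replicate 2 and 739 without DB2313 replicate 2.

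The receptors through which these factors act were described next, from lists chosen, as were all lists here, with earlier results of these data known. Of 30 receptor and co-receptor genes, 24 were tested, of which 1 was higher and 7 were lower, with a median log2 fold change of -0.16. This is 33.3% called, beside 10.6% of all genes. Leaving out any 1 control library gave 5 genes called in place of 8, and leaving out DB2313 replicate 3 gave 12. Met, the receptor of HGF, was at 69.4, 74.8 and 65.9 CPM in control and at 30.8, 28.7 and 31.9 CPM with DB2313. The groups were far apart, and the log2 fold change was -1.20 ± 0.09 (SE, edgeR adjusted p 9.76e-07). Its ligand Hgf did not pass.

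Both FGF receptor genes that were called fell, as did Fgf1. Fgfr1 was at 21.0, 21.0 and 20.1 CPM in control and at 14.0, 15.9 and 17.0 CPM with DB2313, a log2 fold change of -0.40 ± 0.12 (SE, edgeR adjusted p 0.0364). Fgfr3 had 74, 56 and 62 reads in control and 15, 23 and 10 with DB2313, a log2 fold change of -2.14 ± 0.33 (SE, edgeR adjusted p 6.58e-04). Fgfr3 shares 511 bp at 95% identity or more with the overlapping G630022F23Rik, which had 0 reads. Of the VEGF receptors, Flt1 was at 15.8, 18.5 and 15.4 CPM in control and at 8.99, 11.2 and 11.5 CPM with DB2313, a log2 fold change of -0.65 ± 0.14 (SE, edgeR adjusted p 0.00809). The VEGF co-receptor Nrp2 fell from 382 ± 22.6 to 283 ± 19.6 CPM (SD, n = 3 each; log2 fold change -0.43, edgeR adjusted p 0.00143).

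The other main receptors were not called. Kdr had 12 to 39 reads per library and a 95% interval of its log2 fold change from -0.82 to 1.13. Egfr had 20 to 36 reads (-0.49 to 0.99) and Pdgfrb 23 to 44 (-0.86 to 0.71), so that the intervals for these 3 genes were wide. Egfr was higher in every DB2313 library than in every control library, the other 2 overlapped. The mean of Igf1r was 57.7 ± 2.42 CPM in the control group and 62.4 ± 7.20 CPM in the DB2313 group (SD, n = 3 per group; log2 fold change 0.11, edgeR adjusted p 0.514). Il6st, the shared subunit for oncostatin M, was at 129 ± 14.8 and 126 ± 16.9 CPM (SD, n = 3 each; edgeR adjusted p 0.902). Osmr, the other subunit, had 2 reads in control replicate 3 and 0 in the other libraries. The 1 receptor-list gene that rose was the syndecan Sdc4 (log2 fold change 0.29, edgeR adjusted p 0.0446), and the remaining genes that fell were the heparan sulfate carriers Gpc1 (-0.41, 0.00197) and Sdc1 (-0.33, 0.0103); these 3 were named after their values were seen. In the fit with a replicate block, 6 genes of the list were called, all lower, and Sdc4 was not among them. Nor was Sdc4 called by edgeR without any 1 of the control libraries, DB2313 replicate 1 or DB2313 replicate 2.

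**Figure D4:**
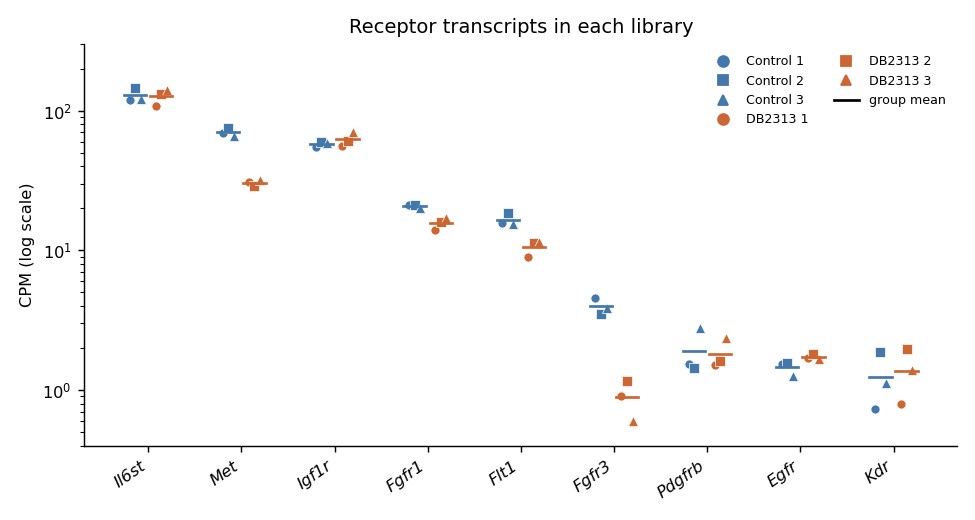
CPM (vertical axis, log scale) of 9 receptor genes in the 3 control (blue) and 3 DB2313 (orange) libraries, with a symbol for each replicate and a line at the group mean. Met, Fgfr1, Flt1 and Fgfr3 are lower in every DB2313 library than in every control library, whereas Il6st, Igf1r, Pdgfrb and Kdr overlap.

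Of 29 symbols listed for other members of the same families, 28 were found, all but Figf, and 14 were tested. Of these, 1 was higher and 1 lower (14.3% called, beside 10.6% of all genes), with a median log2 fold change of 0.13. Nrg1, which encodes neuregulin 1, a ligand of ERBB receptors, was at 49.2, 57.1 and 47.9 CPM in control and at 31.0, 28.2 and 28.0 CPM with DB2313. It fell by 0.82 on the log2 scale (SE 0.10, edgeR adjusted p 6.82e-05). Fgf11, a member of the FGF family that stays inside the cell, had 6, 3 and 5 reads in control and 28, 37 and 41 with DB2313, a log2 fold change of 2.75 ± 0.47 (SE, edgeR adjusted p 0.00137). Of the 35 genes for shedding, activation and binding of growth factors, 27 were tested and 3 were called, all lower. These were Adam8, a membrane protease (log2 fold change -0.49, edgeR adjusted p 1.94e-04), Thbs1, which encodes the matrix protein thrombospondin 1 (-0.45, 0.00337), and the heparan sulfate-cleaving enzyme Hpse (-0.42, 0.0196). The count was 7 without DB2313 replicate 1 and 5 without DB2313 replicate 3. Their 11.1% called was close to the 10.6% of all genes.

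3 further lists held genes that share known inputs with these growth factors. Of 28 early response genes, which many growth factor and stress signals induce, 27 were tested and 8 were called, all lower (29.6% called, beside 10.6% of all genes, 5.94% lower; median log2 fold change -0.14). Nr4a3 fell from 211 ± 24.5 to 121 ± 6.62 CPM, Egr2 from 27.2 ± 3.68 to 17.1 ± 1.14 CPM, Fos from 47.8 ± 11.6 to 30.9 ± 2.23 CPM and Egr1 from 23.2 ± 6.81 to 15.8 ± 1.40 CPM (SD, n = 3 each). Their log2 fold changes lay between -0.80 and -0.55, with edgeR adjusted p-values of 2.92e-05, 0.00204, 0.00796 and 0.0453. Control replicate 1 was the highest library for Fos (60.4 CPM), Egr1 (31.1 CPM) and Egr2 (30.7 CPM), and 4 genes of the list were called without it. The count was 5 without control replicate 3 and 4 without DB2313 replicate 2.

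Of 20 genes known as targets of STAT5, the factor through which GM-CSF induces Osm, 6 were called (30.0%, beside 10.6% of all genes), 2 higher and 4 lower, with a median log2 fold change of -0.041. Il2ra, the alpha chain of the IL-2 receptor, fell from 61.6 ± 3.91 to 35.8 ± 1.52 CPM (SD, n = 3 each; log2 fold change -0.78, edgeR adjusted p 3.77e-05). Ccnd1, which encodes cyclin D1, rose from 25.8 ± 1.89 to 42.1 ± 4.35 CPM (SD, n = 3 each; 0.71, 4.40e-04). The kinase gene Pim1 (-0.40, 0.00127) and the survival gene Mcl1 (-0.27, 0.0110) fell. The count was 3 without control replicate 1, control replicate 2 or DB2313 replicate 2. Of 34 targets of hypoxia-inducible factors, which induce Vegfa, 4 were called (11.8%, beside 10.6% of all genes), 1 higher and 3 lower, with a median log2 fold change of -0.063. The glycolysis genes Pfkfb3 (-0.47, 7.49e-04), Pgam1 (-0.46, 7.47e-04) and Pfkl (-0.25, 0.0384, log2 fold change and edgeR adjusted p) fell. The share called was thus near that of all genes. The gene called higher, named after its values were seen, was Gapdh, which limma-voom did not call, with 219, 131 and 150 reads in control and 3776, 169 and 1863 with DB2313. It is uncertain, since 152 other annotated genes share at least 100 bp at 95% identity or more with it and its groups overlapped.

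**Figure D5:**
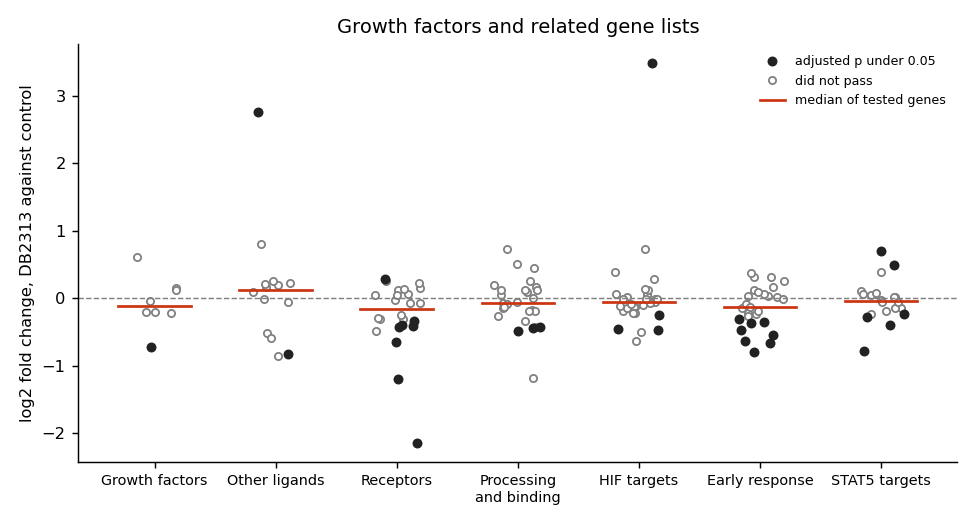
Log2 fold changes (vertical axis, DB2313 against control) of the tested genes among the growth factors and in 6 related lists, 1 point per gene, filled where the edgeR adjusted p was under 0.05, with a red line at the median. Medians lie between -0.16 (receptors) and 0.13 (other ligands); the called receptor and early response genes are lower except Sdc4, and the highest point among hypoxia-inducible factor (HIF) targets is Gapdh.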

How the data were processed

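RNA was extracted with Trizol and sequenced on an Illumina instrument. The authors deposited 1 table of unnormalised gene counts, in whole reads, with a column for each library. The submitters' processing notes name CASAVA 1.8, HISAT2 2.0.5 and featureCounts 1.5.0-p3, whereas the methods of the study name LifeScope. The genome build, strandedness and treatment of multi-mapped reads were not given in the sources used here. The table also held gene lengths as deposited by the authors. Start and end matched those of GENCODE M21 for 98.33% of the 54409 identifiers found in both, and for 8 of the 10 growth factor genes, whose coordinates are given as GRCm38. Hbegf and Fgf1 differed at 1 end.

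Groups were taken from the treatment in the labels. Counts were compared with the quasi-likelihood test of edgeR 4.0.16 (R 4.3.3), after filterByExpr and TMM scaling. Group was the sole factor of the model. P-values of the 14174 tested genes were adjusted by Benjamini-Hochberg, and a gene was called at an adjusted p under 0.05. CPM use TMM-scaled library sizes. Intervals are 95%. In counts simulated from the real means and library sizes, 13942 genes were tested. The test found 152 (77.6%) of the 196 among them that were given a 2-fold change and made 19 false calls. In a simulation with no gene changed, it made 4 calls among 13966 genes. The estimated change of each tested growth factor gene was smaller than 2-fold, so this share found does not apply to changes of their size. Limits set from read counts cover counting error only, as reads carried no molecular identifiers. Near-identical copies were searched with blastn 2.17.0 among GENCODE M21 transcripts. No batch was given in the labels.

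The growth factor genes and all lists were chosen with earlier results of these data known. The pairs of genes set in ratios followed no stated rule, and the share of other gene pairs whose ratios lie apart was not computed. The text names the 10 genes, their main receptors and Spi1, and from each list up to 4 genes with the greatest absolute log2 fold change among those called, whose mean log2 CPM was 0 or more and whose groups did not overlap; other genes were named after their values were seen. Alternatives were DESeq2 1.42.0, limma-voom (limma 3.58.1), other scalings and filters, a prior count of 2, a lowess offset for gene length (span of 0.3), a block for the replicate number, and the omission of each library.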

Additional observations from a re-analysis of the deposited data

How the results depend on the processing

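Fgf1 kept its direction in all 16 alternatives, with a log2 fold change from -0.81 to -0.67, and passed the threshold of 0.05 in 14 of them. The 2 exceptions left out control replicate 2 (-0.67) or DB2313 replicate 2 (-0.68). Of the other 7 tested growth factor genes, Vegfb, Hbegf, Igf1, Pdgfb and Osm stayed above the threshold in every alternative, while Vegfa (-0.26) and Hgf (-0.41) passed without DB2313 replicate 3 only. The sign of Osm turned without control replicate 3 (0.0050, adjusted p 0.987), in a range of -0.078 to 0.0050 over the left-out libraries. These causes were not tested.

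When each of the 6 libraries was left out in turn, the number of growth factor genes called ranged from 0 to 3 and that of all genes from 739 to 2408, against 1503 with all libraries. The counts ranged from 5 to 12 for receptors, from 2 to 7 for processing and binding, from 4 to 11 for early response genes, from 3 to 7 for STAT5 targets and from 3 to 6 for hypoxia-inducible factor targets. The number of all genes called fell without any 1 control library or DB2313 replicate 2. It rose to 1711 without DB2313 replicate 1 and to 2408 without DB2313 replicate 3. The causes of these changes were not tested.

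Replicate numbers gave no sign of pairing, although 3 libraries per group cannot exclude it. Deviations of same-numbered libraries from their group means correlated at -0.0196, -0.0166 and -0.178. No control library correlated best with the DB2313 library of its own number. With the replicate block 1131 genes were called, Fgf1 among them (log2 fold change -0.72, adjusted p 0.0172), and 3 STAT5 targets in place of 6. Depth limits Pgf, Areg, Kdr, Egfr and Pdgfrb, each with fewer than 50 reads in every library.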
